A study of Arabidopsis thaliana with 11 samples.

Results

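Binding of the MADS-domain transcription factors (TFs) APETALA1 (AP1) and SEPALLATA3 (SEP3) was compared at day 2 of synchronised flower development in Arabidopsis thaliana, the stage of meristem specification. The members were all binding sites (BSs) in the deposited peak lists of the 2 factors at that day, 498 for AP1 and 1776 for SEP3, which made 2274 of the 18963 BSs in the 6 lists of the series. A BS was called shared where it overlapped a BS of the other factor by at least 1 bp, and AP1-only or SEP3-only otherwise. Genes were compared by the loci that the authors had written beside each peak.

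The plants were ap1 cal mutants in the Landsberg background with a transgene in which the AP1 promoter drives a fusion of AP1 to part of the glucocorticoid receptor (AP1-GR). All groups, the mock control included, shared these mutations and this transgene, so the fusion was present where the AP1 promoter acts. Inflorescences were collected 2 days after the first treatment with dexamethasone (DEX), which was applied daily and lets the fusion enter the nucleus. They were used for chromatin immunoprecipitation and sequencing (ChIP-seq). An antibody to the receptor part served for AP1-GR (2 samples), and a peptide antibody for SEP3 (2 samples). Pre-immune serum gave 1 mock sample at day 2. The 2 SEP3 samples are titled as day 2 but their tissue label reads 4 days, and the series text counts 1 replicate for day 2 where the titles list 2. Each SEP3 value below rests on the titles, and a difference between the factors cannot be told apart from a difference in harvest day if the tissue label is right. The authors pooled replicates before calling peaks, so the peak lists carry no spread between replicates, and the intervals given are Wilson 95% intervals that cover counting error only. Each p compares BSs of these lists and says nothing of other plants. The read depth of the libraries was not analysed here, and a longer list at the same threshold can come from a deeper library. Each factor had its own antibody, so a difference between the factors also cannot be told apart from a difference between the antibodies.

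AP1 and SEP3 act in larger complexes of MADS-domain proteins, in which SEP3 bridges other members. AP1 specifies the floral meristem and later sepals and petals, whereas the SEPALLATA proteins are needed for organ identity in all floral whorls. These proteins contact DNA at the CArG box, written here as CC, then 6 positions that are each A or T, then GG. GA-rich stretches, here 8 alternating bases of G and A on either strand, are bound by BASIC PENTACYSTEINE proteins in plants. The letters of the motifs can overlap by at most 1 base.

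To show what the summits of each class look like, the reference sequence from 50 bp before to 50 bp after the summit is given for the 3 highest-ranked BSs of each class (TAIR10, plus strand), with CArG boxes and GA-rich runs in capitals. All motif counts below also use this reference, and differences between it and the Landsberg plants were not examined. The shared BSs are centred on the AP1 summit and lie at chr5:10455530-10455630 beside LSH1, at chr3:4606010-4606110 upstream of GRF5 and at chr3:9812851-9812951 upstream of CCB1. Only the CCB1 window held a CArG box, centred at -25 bp from the summit.
LSH1, shared: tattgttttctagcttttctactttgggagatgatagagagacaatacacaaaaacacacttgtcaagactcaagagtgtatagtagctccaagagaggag
GRF5, shared: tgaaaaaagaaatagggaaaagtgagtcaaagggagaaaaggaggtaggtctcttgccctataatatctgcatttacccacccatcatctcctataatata
CCB1, shared: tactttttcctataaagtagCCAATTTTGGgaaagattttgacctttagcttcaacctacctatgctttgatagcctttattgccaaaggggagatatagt
The AP1-only windows lie at chr2:14593642-14593742 upstream of PID, at chr2:17249073-17249173 upstream of AT2G41380 and at chr1:24732509-24732609 in the 5 prime UTR of AT1G66330, a site also listed for ETR1. None of them held a CArG box, and the window of AT2G41380 held a GA-rich run.
PID, AP1-only: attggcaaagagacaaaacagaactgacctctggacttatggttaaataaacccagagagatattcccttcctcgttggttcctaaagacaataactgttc
AT2G41380, AP1-only: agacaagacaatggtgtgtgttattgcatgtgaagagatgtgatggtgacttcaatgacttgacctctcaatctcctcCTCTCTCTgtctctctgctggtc
AT1G66330 and ETR1, AP1-only: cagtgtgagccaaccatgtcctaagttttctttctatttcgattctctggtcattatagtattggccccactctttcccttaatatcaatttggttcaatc
The SEP3-only windows lie at chr4:17319849-17319949 between genes, at chr4:609146-609246 in a coding exon of UMAMIT30 and at chr5:11953655-11953755 between genes. The first held a CArG box centred at 2 bp from the summit, and the others held neither motif. The window on chromosome 5 belongs to a peak only 57 bp wide that was in no later list, and such narrow peaks are counted below.
Chromosome 4 intergenic, SEP3-only: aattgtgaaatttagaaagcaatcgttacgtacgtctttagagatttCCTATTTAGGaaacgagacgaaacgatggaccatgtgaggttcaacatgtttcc
UMAMIT30, SEP3-only: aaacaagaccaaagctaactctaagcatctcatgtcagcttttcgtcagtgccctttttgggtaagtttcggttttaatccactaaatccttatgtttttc
Chromosome 5 intergenic, SEP3-only: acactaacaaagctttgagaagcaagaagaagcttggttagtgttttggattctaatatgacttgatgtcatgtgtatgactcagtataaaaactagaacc

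To determine how far the 2 factors occupied the same sites at meristem specification, the lists were overlapped. Of the 498 AP1 BSs, 424 (85.1%, 95% interval 81.7 to 88%) were shared, and 74 (14.9%, 12 to 18.3%) were AP1-only. Of the 1776 SEP3 BSs, 414 (23.3%, 21.4 to 25.3%) were shared and 1362 were SEP3-only. The 2 shared counts differ because 11 AP1 BSs met more than 1 SEP3 BS and 15 SEP3 BSs met more than 1 AP1 BS. The summits of shared pairs lay a median of 33 bp apart, with the middle 50% of pairs between 13 and 71 bp. Shared BSs were wider than the others, with a median width of 199 bp against 113 bp in the AP1 list and of 300 bp against 120 bp in the SEP3 list, and a wider peak has more room to overlap. The share of AP1 BSs was 78.1% when summits within 150 bp were required and 53% with a reciprocal overlap of 50%. When the SEP3 list was reduced to the 498 BSs of highest fold enrichment, 51.2% of AP1 BSs and 47.2% of those SEP3 BSs were shared.

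The rule of 1 bp separates BSs that are close to each other. The smallest overlaps were 11 bp near AT4G21930, 29 bp at AT2G46420 and 31 bp upstream of SPL4, which encodes a SQUAMOSA promoter-binding protein that promotes flowering. Just outside the rule, the AP1-only BSs at PUB38, MYB37 and MIR159a lay 18, 56 and 64 bp from a SEP3 BS. The median AP1-only BS lay 5803 bp from the nearest SEP3 BS, and 21 of 74 had one within 1000 bp. Of the 1362 SEP3-only BSs, 87 had an AP1 BS within 1000 bp.

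By the authors' gene columns, AP1 had 527 potential target genes and SEP3 had 1956. Both factors listed 465 genes, which were 88.2% (85.2 to 90.7%) of the AP1 genes and 23.8% (21.9 to 25.7%) of the SEP3 genes. With the SEP3 list reduced to 498 BSs these shares were 55.4% and 49.1%. AP1 alone listed 62 genes and SEP3 alone 1491. Of 37899 annotated nuclear genes, 1.2% were listed for both factors, 0.161% for AP1 alone and 3.85% for SEP3 alone, counting the 454, 61 and 1461 loci that the annotation holds. This annotation may count loci that the authors' gene columns could not hold. For example, an AP1-only summit in a noncoding exon, 146 bp from the start of AT1G06403, had no listed gene. The shares of all genes may therefore be too low as a background. Of the 465 common genes, 451 had an overlapping pair of BSs and 14 were reached by the factors through separate BSs. The AP1-only BSs were listed beside 95 genes, and SEP3 listed 36 of these through another BS. Gene and site comparisons therefore do not pick the same set, since 37.9% of the genes beside AP1-only BSs were SEP3 genes as well.

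Shared BSs were more common at the top of both lists than at the bottom. Fold enrichment is the ratio of ChIP signal to the control at the summit, as the peak caller wrote it. Since the lists were called separately, the factors were compared by rank within each list. Medians and values of fold enrichment are printed as description, and no difference in them between the factors was tested. In the AP1 list, all 99 BSs in the highest 20% by fold enrichment were shared, against 69 of 99 (69.7%) in the lowest 20%. This difference of 30.3 percentage points had an adjusted p of 5.56e-10 (two-sided Fisher's exact test, Benjamini-Hochberg over 12 tests). In the SEP3 list 188 of 355 BSs (53%, 47.8 to 58.1%) in the highest 20% were shared and 35 of 355 (9.86%, 7.17 to 13.4%) in the lowest 20%, an odds ratio of 10.3 (adjusted p = 5.43e-36, Fisher's exact test). The highest 100 AP1 BSs were shared without exception, whereas 64 of the highest 100 and 6 of the highest 10 SEP3 BSs were. The median fold enrichment was 4.21 for shared and 3.5 for AP1-only BSs in the AP1 list, and 5.59 for shared and 4.14 for SEP3-only BSs in the SEP3 list.

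**Figure D1:**
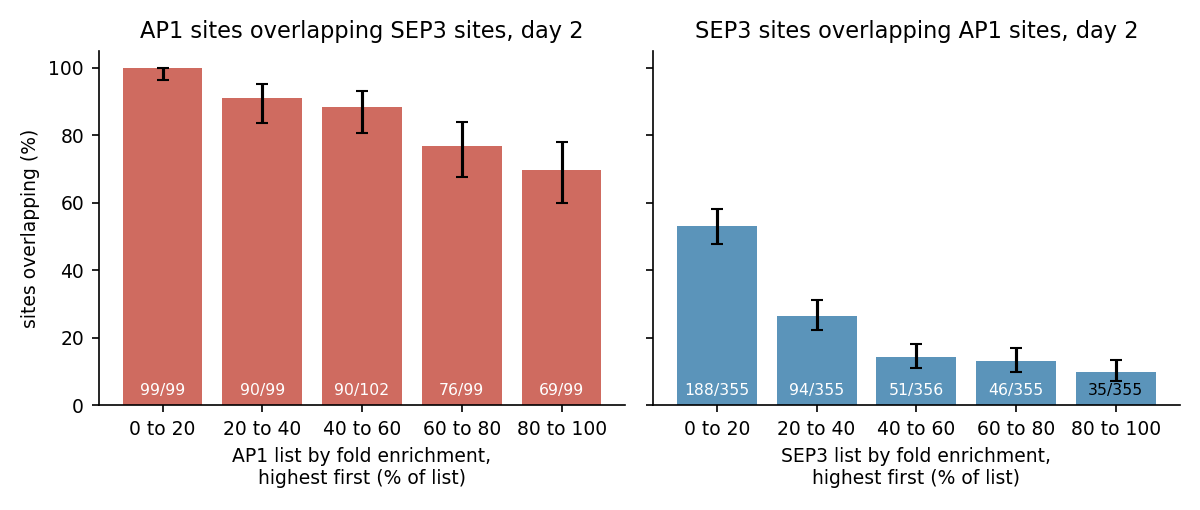
Share of BSs that overlapped a BS of the other factor at day 2 (y axis, percent) in steps of 20% of the AP1 list (left) and the SEP3 list (right), ordered by fold enrichment with the highest first (x axis). Bars give the share, error bars the Wilson 95% interval and the numbers the shared BSs of all BSs in the step, which fell from 99/99 to 69/99 for AP1 and from 188/355 to 35/355 for SEP3.

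The order of the shared pairs was compared between the lists. Across the 424 pairs, Spearman's rho of fold enrichment was 0.343, a description across sites that share 1 control, and it was 0.529 across the 264 pairs with a reciprocal overlap of 50%. The 50 highest AP1 BSs had their SEP3 partners at a median rank of 144 of 1776, with a range from 6 to 1765. Of these partners, 13 were among the highest 50 SEP3 BSs and 38 in the highest 20% of that list.

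The pairs that ranked highest in both lists lay beside regulators of growth and of floral identity as well as beside genes of other kinds. The highest was in the 5 prime UTR of LSH1, which encodes an ALOG-family protein, with 10.5-fold enrichment for AP1 (rank 1) and 11.6-fold for SEP3 (rank 6). GRF5, a growth-regulating factor that promotes cell proliferation in leaves, had 9.93-fold for AP1 and 10.9-fold for SEP3, with the AP1 summit at -2016 bp from its start. The 2 summits of this pair lay 201 bp apart. The pair upstream of CCB1, a factor for assembly of the cytochrome b6f complex, had 9.77-fold and 10.7-fold, and its summits were 6 bp apart. The pair of LEJ2, a protein with CBS domains, had 8.76-fold and 10.6-fold. AP2, the neighbour of LEJ2 on chromosome 4, encodes a repressor of flowering that also specifies the perianth. Its pair, with 7.36-fold and 11.2-fold, held both a CArG box and a GA-rich run near the AP1 summit. SEP3 itself carried a pair of 7.95-fold for AP1 and 9-fold for SEP3, with the AP1 summit at -2738 bp from the gene start. The other 2 of these 8 pairs had no listed gene and lay on chromosomes 4 and 1, with 8.16-fold and 9.56-fold and with 7.95-fold and 9.6-fold. In each of the 8 pairs the AP1 BS was also found in the 4 later lists.

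Some pairs stood high in 1 list and low in the other. RAV1, which encodes a TF with a B3 and an AP2 domain, had the BS of rank 8 in the SEP3 list (11.6-fold) but of rank 455 in the AP1 list (3.07-fold), with summits 3 bp apart. The pairs upstream of AT1G73390 and LPPepsilon2 and in a coding exon of AT1G18740 had SEP3 ranks of 25, 45 and 208 and AP1 ranks of 480, 481 and 494 of 498. Their summits lay 264, 141 and 323 bp apart, so the first and the last fell outside the 150 bp of the summit rule. The opposite order was found at an intergenic pair on chromosome 1 near AT1G30090, with 6.5-fold for AP1 (rank 39) and 2.54-fold for SEP3 (rank 1765). AT5G39240 had ranks 97 and 1638. NTT, a zinc-finger TF required in the transmitting tract of the gynoecium, had 5.55-fold for AP1 (rank 69) and 3.59-fold for SEP3 (rank 1391). NGA1, a B3-domain TF needed for style development, had 4.55-fold (rank 166) and 2.9-fold (rank 1711). Summit distances of the pairs in this opposite order were 39, 64, 146 and 68 bp, in the order named.

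**Figure D2:**
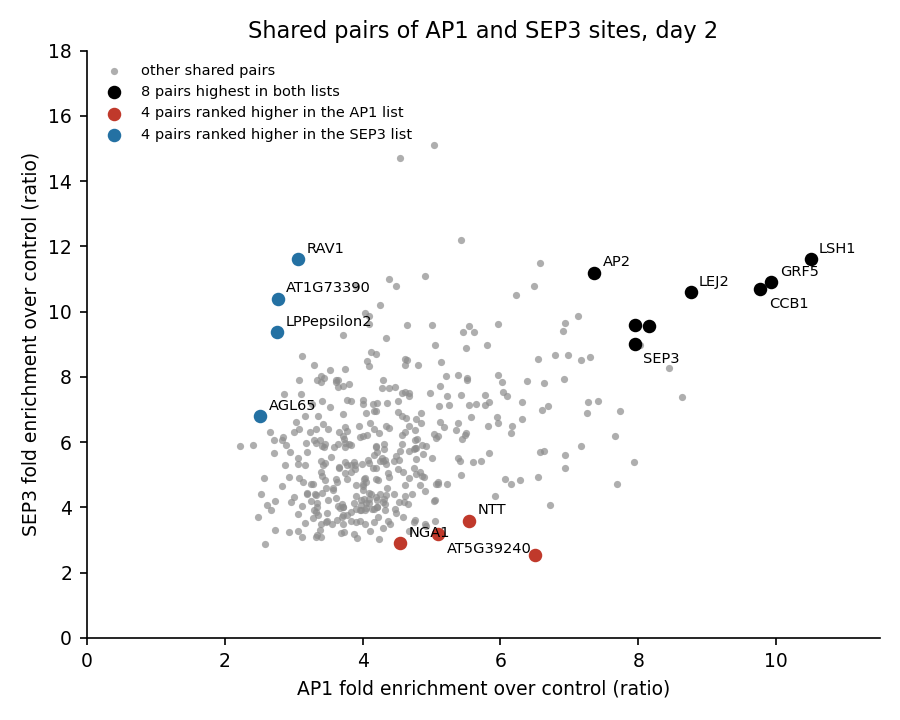
Fold enrichment over control for AP1 (x axis) and SEP3 (y axis) of the 424 shared pairs at day 2, each point 1 pair. Black points are the 8 pairs highest in both lists, red and blue points the 4 pairs ranked furthest towards AP1 and towards SEP3, labelled by a listed gene; rho was 0.343.

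Exact CArG boxes were counted at the summits of each class. Within 50 bp of the AP1 summit a box occurred at 35 of 424 shared BSs (8.25%, 6 to 11.3%) and at 0 of 74 AP1-only BSs (Wilson interval 0 to 4.93%), where the limit of 3 counts that a count of 0 allows is 4.05%. The difference passed Fisher's exact test (two-sided, adjusted p = 0.0125). Where an alternative changed the overlap rule or the lists, the classes were formed again, here and below. A BS shared by the 1 bp rule could then count as not shared. The difference was no longer past the threshold with a reciprocal overlap of 50% (7.2% of shared against 6.84% of other BSs). The same held at a −log10 q of 10 or more in both lists (15 of 145 shared and 3 of 30 other BSs). Each had an adjusted p of 1 by the same exact test. With 1 mismatch allowed, 35.8% of shared and 21.6% of AP1-only BSs held a box. No AP1-only BS stood in the highest 20% of the list, and within the remaining 80%, 23 of 325 shared BSs (7.08%) and 0 of 74 AP1-only BSs held an exact box. Of all genome windows of that width, 0.594% held one, and of windows 500 bp to either side of shared AP1 summits 0.943% did.

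In the SEP3 list a CArG box occurred at 40 of 414 shared BSs (9.66%) and 86 of 1362 SEP3-only BSs (6.31%), with an adjusted p of 0.0483 (two-sided Fisher's exact test). The call was kept with summits within 150 bp (adjusted p = 0.0323 by the same exact test) and lost in the other 5 alternatives, with adjusted p between 0.0841 and 0.81. The shares also moved with the order of the list. In the highest 20% of the list 17.6% of shared and 15% of SEP3-only BSs held a box, whereas in the remaining 80%, 7 of 226 shared (3.1%) and 61 of 1195 SEP3-only BSs (5.1%) did, a difference in the opposite direction that was not tested. Beside the shared pairs with a box near a summit (46 pairs), the box lay a median of 13 bp from the SEP3 summit and 23.5 bp from the AP1 summit, and it was nearer to the SEP3 summit in 25 pairs and to the AP1 summit in 19. GA-rich runs occurred at 8.25% of shared and 12.2% of AP1-only BSs (adjusted p = 0.324, two-sided Fisher's exact test), and at 6.28% of shared and 4.92% of SEP3-only BSs (adjusted p = 0.341, same exact test). They occurred in 2.08% of genome windows.

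Of the summit positions tested, coding exons in the SEP3 list differed between classes. Coding exons held 25 of 414 shared SEP3 summits (6.04%, 4.12 to 8.76%) and 204 of 1362 SEP3-only summits (15%, 13.2 to 17%), with an adjusted p of 1.79e-06 (two-sided Fisher's exact test). In the highest 20% of the list these shares were 6.91% and 6.59%, and in the lowest 20% they were 5.71% and 24.1%. Among the 498 highest SEP3 BSs the difference was 0.906 percentage points in the opposite direction (adjusted p = 0.81, Fisher's exact test). For AP1, 34 of 424 shared and 1 of 74 AP1-only summits lay in coding exons (adjusted p = 0.0674, same exact test), and this difference turned to -11.7 percentage points with a reciprocal overlap of 50%. Promoters, up to 1000 bp upstream of a start, held 27.4% of shared and 33.8% of AP1-only summits (adjusted p = 0.324, Fisher's exact test), and 27.1% of shared and 26.4% of SEP3-only summits (adjusted p = 0.8). Of all genome positions, 28.3% were coding exon and 17.4% promoter.

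The lists of days 4 and 8, which played no part in the class rule, were used to follow each class. By an overlap of at least 1 bp, 411 of 414 shared SEP3 BSs (99.3%) were found again in the SEP3 list of day 4. Of the SEP3-only BSs, 1200 of 1362 (88.1%, 86.3 to 89.7%) were, an odds ratio of 18.5 (adjusted p = 2.01e-15, two-sided Fisher's exact test). Both shares were lower under stricter matching, for which the classes were formed again. Summits within 150 bp gave 355 of 393 shared (90.3%) and 1046 of 1383 other SEP3 BSs (75.6%). Where 50% of both peaks had to overlap, 93 of 264 shared (35.2%) and 227 of 1512 other SEP3 BSs (15%) remained. For AP1, 361 of 424 shared BSs (85.1%, 81.4 to 88.2%) and 55 of 74 AP1-only BSs (74.3%, 63.3 to 82.9%) were found in the AP1 list of day 4 (adjusted p = 0.0483, same exact test). This call was lost without peaks under 75 bp (7.14 percentage points, adjusted p = 0.221 by the exact test). The difference turned to -0.813 percentage points with the SEP3 list reduced to the length of the AP1 list. Stricter matching lowered the AP1 shares too. They were 81.5% of shared and 53.2% of other AP1 BSs by summits within 150 bp. Where 50% of both peaks had to overlap, they were 73.1% and 26.1%. No AP1-only BS stood in the highest 20% of the AP1 list, where 97 of 99 shared BSs were found again. In the remaining 80%, 264 of 325 shared BSs (81.2%) and 55 of 74 AP1-only BSs (74.3%) were. In the lowest 20% it was 46 of 69 shared (66.7%) and 24 of 30 AP1-only BSs (80%), the opposite direction. The shares within ranks were not tested for either factor. At day 8 the AP1 list held 66.3% of the shared and 32.4% (22.9 to 43.7%) of the AP1-only BSs. Below the highest 20% of the day 2 list these shares were 59.4% and 32.4%.

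Most BSs that were AP1-only at day 2 were overlapped by at least 1 bp by a SEP3 BS of a later day. A SEP3 BS of day 4 or 8 overlapped 68 of the 74 (91.9%, 83.4 to 96.2%), 65 of them at day 4 and 65 at day 8. In 34 cases the BS was present in the AP1 list of day 4 and in both later SEP3 lists but not in the AP1 list of day 8, and in 19 it was present in all 4 later lists. In 5 cases it was in none. The later SEP3 lists held 6843 and 7815 BSs, 3.85 and 4.4 times as many as that of day 2, and for shared AP1 BSs the same share was 99.3% (97.9 to 99.8%). In the other direction, an AP1 BS of day 4 or 8 overlapped 384 of the 1362 SEP3-only BSs (28.2%, 25.9 to 30.6%) and 380 of the 414 shared SEP3 BSs (91.8%, 88.7 to 94.1%). By the class rule, shared BSs already overlapped the other factor at day 2, whereas AP1-only and SEP3-only BSs did not. A gap between classes in the later lists of the other factor is therefore not independent of that rule.

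**Figure D3:**
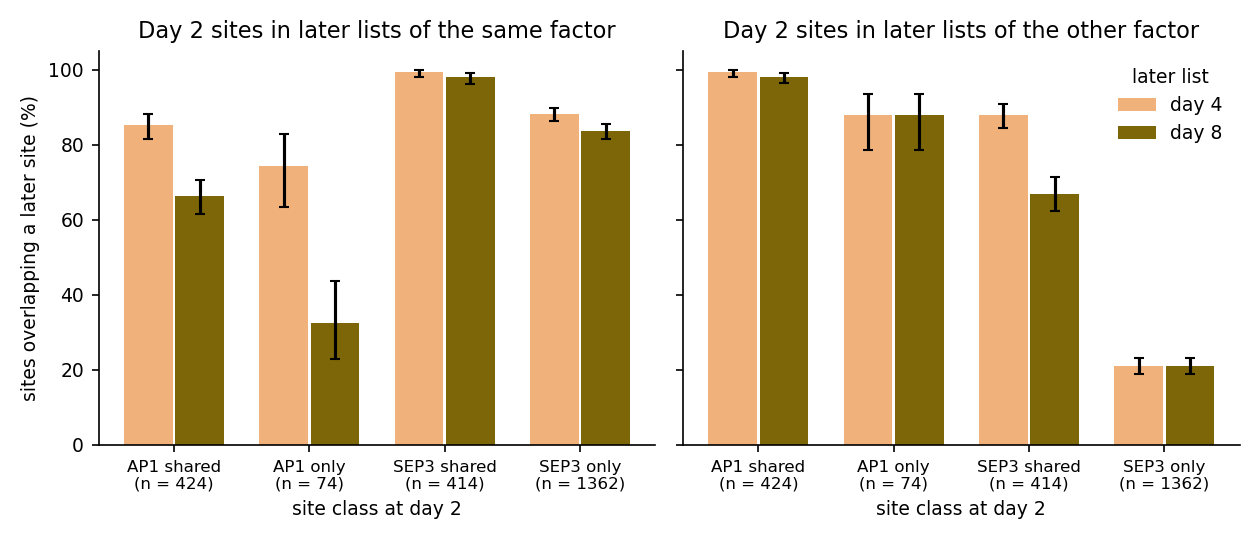
Share of day 2 BSs (y axis, percent) that overlapped a BS of days 4 and 8 in the lists of the same factor (left) and of the other factor (right), by class at day 2. Error bars are Wilson 95% intervals; AP1-only BSs met a SEP3 BS of day 4 in 87.8% of cases, SEP3-only BSs an AP1 BS of day 4 in 20.9%.

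The highest AP1-only BS lay at -1552 bp from the start of PID, which encodes a kinase of polar auxin transport. It had 5.05-fold enrichment, rank 103 of 498, and was present in all 4 later lists. SEP3 listed PID too, through BSs of its own, the higher of which lay in a coding exon 1586 bp downstream of the start with 4.16-fold. AT2G41380 followed with 4.97-fold, 358 bp from a SEP3 BS. The BS in the 5 prime UTR of AT1G66330, listed also for the ethylene receptor gene ETR1, had 4.75-fold and lay 11456 bp from the nearest SEP3 BS. It was absent from the day 4 lists and present in both day 8 lists, as was the BS of AT1G52565 (4.56-fold). AT1G79090 had 4.55-fold and WAVH1 had 4.46-fold, and both were present in the later SEP3 lists.

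The highest SEP3-only BSs included wide peaks that were found again at later days and narrow peaks that were not. First was an intergenic BS on chromosome 4, at -3458 bp from the start of HB40, a homeobox gene, with 12.1-fold enrichment, rank 4, and a span from 17319717 to 17320109. It was overlapped by AP1 BSs at days 4 and 8. UMAMIT30, of a family of amino acid transporters, had 11.7-fold in a coding exon and was in both later SEP3 lists but in no AP1 list. The same held for a BS near AT1G12190 (11.3-fold) and for one at the start of ATCSA-1 (10.5-fold). The BS in the promoter of AT5G07620 had 10.4-fold and was found in all 4 later lists. By contrast, the BSs of ranks 7, 20 and 23 had widths of 57, 69 and 55 bp and were in no later list of either factor. They lay between genes on chromosome 5 (11.6-fold), in a coding exon of UBQ11, a polyubiquitin gene (10.6-fold), and near AT3G41761 (10.5-fold).

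Narrow peaks were therefore counted, with a limit of 75 bp chosen after the values were seen. In the highest 20% of the SEP3 list, 25 SEP3-only BSs were narrower than 75 bp, and 22 of them (88%) were in neither later SEP3 list, against 1 of 142 wider SEP3-only BSs. No listed gene stood beside 18 of the 25, and none held a CArG box, against 25 of the 142. UBQ10, another polyubiquitin gene named after its values were seen, carried 1 of them (6.26-fold, 54 bp). Among shared BSs of that rank, 2 were that narrow, and the one of them on chromosome 4 (3966550 to 3966603) was matched by an AP1 peak of 64 bp and absent from both later SEP3 lists. In the AP1 list, 2 shared BSs of the highest 20% were under 75 bp wide, and neither was in a later AP1 list. Of the 142 wider SEP3-only BSs of high rank, 141 were found in the SEP3 list of day 4, and 57 (40.1%, 32.4 to 48.4%) met a later AP1 BS. Without peaks under 75 bp in both lists, 84.5% of AP1 and 25.5% of SEP3 BSs were shared, and the highest and lowest 20% of the SEP3 list had 56.3% and 12.6% shared BSs. What produced the narrow peaks was not tested.

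**Figure D4:**
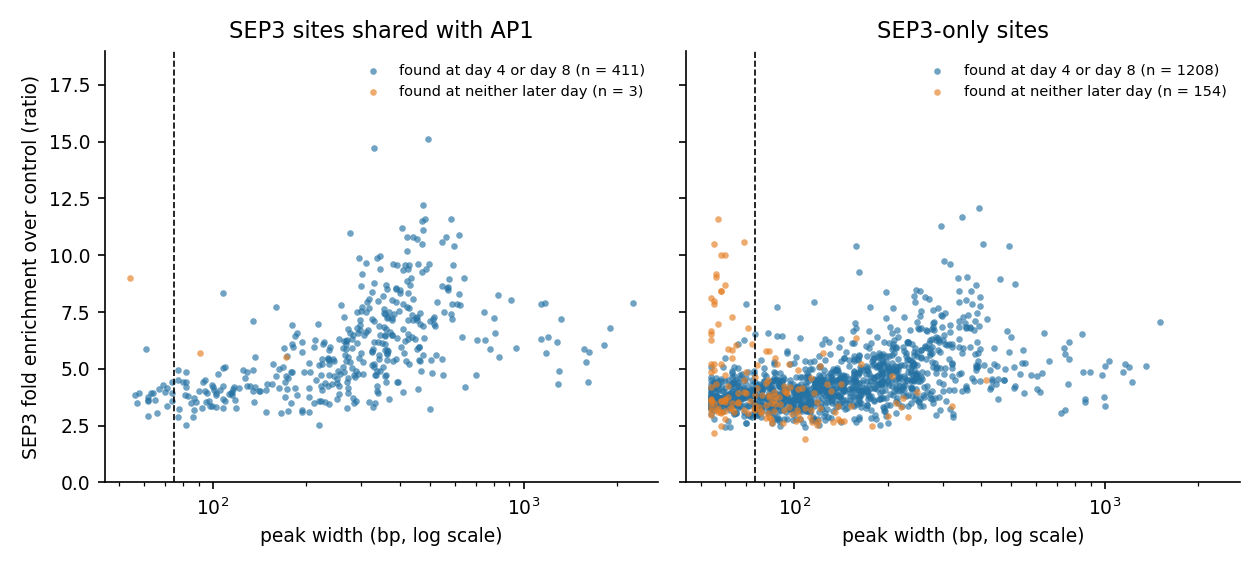
Peak width (x axis, bp, log scale) and fold enrichment (y axis) of SEP3 BSs at day 2, shared with AP1 (left) or SEP3-only (right), each point 1 BS. Orange BSs were in neither later SEP3 list, 3 of the shared and 154 of the SEP3-only BSs; the dashed line marks 75 bp, left of which lie 22 of the 23 orange SEP3-only points in the highest 20% of the list.

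Target genes were then read through 8 lists of known regulators, 140 genes in all, which were chosen with earlier results of these data known and are described without a test. Of the 140 genes, 45 (32.1%) were listed for both factors, 3 for AP1 alone, 25 for SEP3 alone and 67 for neither. Of all annotated genes the shares were 1.2%, 0.161% and 3.85%, which may be too low as a background for the reason given above. The 45 had a median of their highest fold enrichment of 5.05 for AP1 and 7.13 for SEP3, against 4.2 and 5.95 over all 465 common genes. Members are named by AP1 fold enrichment, or by SEP3 fold enrichment where AP1 had no BS. The values are those of each factor's highest BS beside the gene. These BSs overlapped for 38 of the 45 genes and were separate for the other 7, namely AP1, SEP4, SAP, KNAT2, CUC3, PHV and PID.

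Of 15 floral homeotic MADS-box genes, 9 were listed for both factors, 3 for SEP3 alone and none for AP1 alone. After SEP3, the highest for AP1 were AG, which specifies stamens and carpels (5.61-fold for AP1, 9.37-fold for SEP3, in an intron), FUL, which acts in meristem and fruit identity (5.55-fold and 7.13-fold), and SEP4 (4.89-fold and 5.51-fold). AP3, PI and SHP2, genes for petals and stamens or for the fruit, were named after their values were seen, because they stood among the highest SEP3 BSs (8.48, 9.27 and 9.87-fold, ranks 73, 47 and 32) and in the middle of the AP1 list (4.07, 3.72 and 4.09-fold, ranks 253, 326 and 246). The 3 genes listed for SEP3 alone were SHP1 (5.66-fold), SEP2 (5.04-fold) and CAL (4.83-fold), the last a close relative of AP1. AP1 itself carried 4 BSs of each factor, but sequence of its promoter is also present in the transgene, so reads of the 2 copies cannot be told apart there.

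Of 21 flowering-time and inflorescence genes, 9 were common, 5 were listed for SEP3 alone and 7 for neither. FD, a bZIP partner of the flowering signal FT, had 8.45-fold for AP1 and 8.28-fold for SEP3. SOC1, a MADS-box integrator of flowering signals, had 8.02-fold and 8.97-fold, with 5 AP1 and 7 SEP3 BSs. SMZ, an AP2-type repressor of flowering, had 6.9-fold and 9.4-fold. For SEP3 alone, FLC had 6.69-fold, TOE1 6.12-fold, SPL15 3.93-fold and SPL5 3.8-fold.

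Of 11 floral meristem identity partners, 6 were common. LMI2 (6.38-fold for AP1, 7.86-fold for SEP3), BOP1 (6.29-fold and 4.83-fold), SAP (5.44-fold and 6.25-fold) and BOP2 (5.21-fold and 8.03-fold) had the highest AP1 values. LFY, the TF that acts with AP1 to specify the floral meristem, was listed for SEP3 alone (4.1-fold, rank 1039). LMI1, a homeobox gene known as a target of LFY, was listed for AP1 alone (3.95-fold), at -1188 bp from its start.

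Of 11 meristem maintenance genes, 3 were common, namely KNAT6 (4.81-fold for AP1, 8.35-fold for SEP3), KNAT2 (3.4-fold and 3.67-fold) and CLV1 (3.28-fold and 4.72-fold). STM, which keeps meristem cells undifferentiated, had 4.82-fold for SEP3 alone, ULT1 4.68-fold and PAN 2.81-fold. Of 13 organ boundary genes, 4 were common, namely LSH4 (5.95-fold for AP1, 6.77-fold for SEP3), LSH3 (4.85-fold and 6.9-fold), LOF1 (4.63-fold and 6.74-fold) and CUC3 (3.31-fold and 5.71-fold). CUC3 encodes a NAC TF that separates organs. LOB (7-fold), SUP (6.12-fold), JAG (4.19-fold) and LOF2 (3.6-fold) were among the 5 listed for SEP3 alone.

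Of 18 organ polarity genes, 5 were common and 9 were in neither list. AS1, a MYB gene of adaxial fate, had 6.98-fold for AP1 and 8.68-fold for SEP3, and ETT, an auxin response factor of abaxial fate, 5.54-fold and 9.55-fold. PHV had 4.67-fold and 7.29-fold, PHB 3.83-fold and 5.91-fold. KAN3, of the KANADI family of abaxial genes, was listed for AP1 alone, in an intron (4.39-fold). KAN2 (4.64-fold), REV (3.98-fold) and FIL (3.36-fold) were listed for SEP3 alone.

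Of 25 organ growth regulators, 6 were common, 1 was listed for AP1 alone and 2 for SEP3 alone. After GRF5 came GIF1, a coactivator of GRF proteins (5.57-fold for AP1, 6.77-fold for SEP3), AIL6 (5.36-fold and 6.37-fold) and GRF3 (5.1-fold and 4.78-fold). GRF4 was listed for AP1 alone (3.5-fold), and AIL5 (6.59-fold) and GRF2 (3.37-fold) for SEP3 alone. The AP1-only BSs of GRF4, and of LMI1 and KAN3 above, were overlapped by SEP3 BSs at days 4 and 8. Of 26 hormone genes, 20 were in neither list. Besides PID, the common ones were ARR7, a response regulator of cytokinin signalling (4.67-fold and 7.42-fold), and GA2OX1, a gibberellin-inactivating enzyme (4.24-fold and 6.29-fold). YUC4, of auxin synthesis, had 6.81-fold for SEP3 alone, and GA2OX4 had 4.35-fold.

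**Figure D5:**
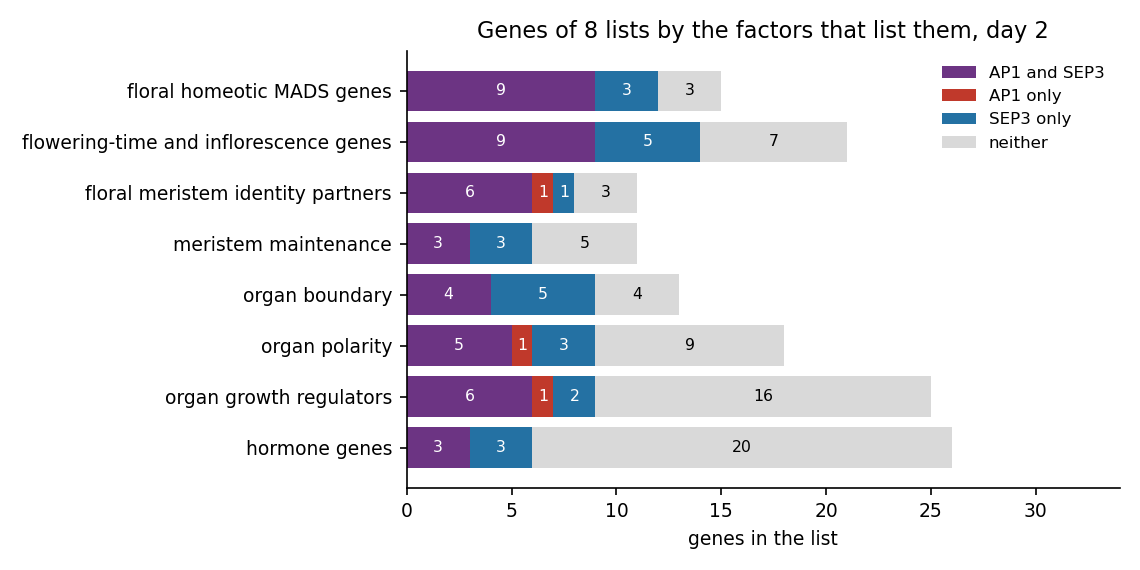
Number of genes (x axis) in each of the 8 lists that were listed at day 2 for both factors, for AP1 only, for SEP3 only or for neither. Floral homeotic MADS-box genes had 9 of 15 common genes and hormone genes 3 of 26; AP1 alone listed 3 genes over all lists.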

How the data were processed

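The report uses the deposited peak lists of AP1 and SEP3 at day 2, and those of days 4 and 8 for later overlap. Per the study's methods, the authors mapped reads to TAIR10 with Bowtie 0.12.7, kept nuclear reads, pooled replicates, called peaks with MACS2 at a q of 0.001 against pre-immune serum and listed genes from 3000 bp upstream to 1000 bp downstream. Base calling used CASAVA 1.7 for AP1 at days 4 and 8 and 1.8 otherwise. The labels and the methods differ in the DEX concentration. Deposited fold enrichment is a ratio written by the authors' peak caller, and significance was deposited by the authors as −log10 of the q value, which lay at or above 3.06 for AP1 and 3.02 for SEP3.

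No peak passed a chromosome end, and 99.7% (AP1) and 99.9% (SEP3) of listed genes known to the annotation had the summit in the authors' window. Of the listed loci, 12 AP1 and 41 SEP3 loci were not in the RefSeq annotation of TAIR10 used here. Summits were put in 1 class in the order coding exon, 5 prime UTR, 3 prime UTR, noncoding exon, intron, promoter, other intergenic. Overlaps, motif searches and 12 Fisher's exact tests were run in Python 3.11.15 with scipy 1.17.1 and checked on simulated data. A call had an adjusted p under 0.05.

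The members, gene lists and tests were chosen with earlier results of these data known. BSs named were the 8 shared pairs of highest summed percentile rank, the 6 AP1-only and 8 SEP3-only BSs of highest fold enrichment, the 4 pairs of largest percentile difference in each direction, the 3 smallest overlaps and gaps, and up to 4 members of each gene list and class; 1 hormone gene is not reported here. Other overlap rules, a −log10 q of at least 10, a SEP3 list of equal length, other ranks, motifs, windows and days were tried as alternatives.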

Additional observations from a re-analysis of the deposited data

How the results depend on the processing

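No paired analysis was possible because the peak lists used here pool the replicates of each factor, and for the same reason no replicate was left out; the single replicates were not analysed here. Leaving out peaks under 75 bp was chosen after seeing the data. Of 98 alternative values, 63 kept their direction and side of the threshold or stayed within the interval of the main value; the others are given here, and their cause was not tested. The share of AP1 BSs that were shared moved from 85.1% to 53% with a reciprocal overlap of 50%, 78.1% with summits within 150 bp and 51.2% with a SEP3 list of equal length. That of SEP3 BSs moved from 23.3% to 14.9% (reciprocal overlap), 20.3% (−log10 q of at least 10), 47.2% (equal length) and 25.5% (no peaks under 75 bp). Common genes moved from 88.2% to 82.3% of AP1 genes and from 23.8% to 17.6% of SEP3 genes at a −log10 q of at least 10, to 55.4% and 49.1% at equal length, and to 84.7% of AP1 genes with a window of 1000 bp upstream. Spearman's rank correlation of the shared pairs moved from 0.343 to 0.529 with a reciprocal overlap.

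The following are differences in percentage points, shared minus not shared, with their adjusted p by two-sided Fisher's exact test given for those past the threshold. Where the overlap rule or a list changed, the classes were formed again, so they are not the classes of the 1 bp rule. The CArG difference of the AP1 list was lost with a reciprocal overlap (0.359) and with the −log10 q limit of 10 (0.345). That of the SEP3 list was lost under 5 alternatives, at 1.46 (reciprocal overlap), 1.33 (−log10 q), 1.54 (equal length), 5.07 (1 mismatch) and 3.23 (no peaks under 75 bp). The GA-rich difference of the AP1 list turned to 1.92 by summits and was −6.05 at equal length (exact test, adjusted p = 0.0366), and that of the SEP3 list turned to −1.49 at a −log10 q of at least 10. The coding exon difference of the AP1 list turned to −11.7 with a reciprocal overlap (exact test, adjusted p = 3.51e-07) and −6.27 by summits (adjusted p = 0.049), and was 9.71 at equal length (adjusted p = 4.21e-05). That of the SEP3 list turned to 0.906 at equal length. The promoter difference of the AP1 list turned to 2.62 (reciprocal overlap), 5.71 (summits), 5.63 (−log10 q) and 4.66 (equal length), and that of the SEP3 list was 6.44 with promoters of 3000 bp (exact test, adjusted p = 0.0423). AP1 BSs found again at day 4 gave 0.575 (−log10 q), −0.813 (equal length) and 7.14 (no peaks under 75 bp). The differences between the highest and lowest 20% of each list kept their direction and their call in every alternative run.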
